A study of Mus musculus with 20 samples.

Results

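Multiple sclerosis is modelled in mice by experimental autoimmune encephalomyelitis (EAE), and the comparison described here asked whether EAE altered gene expression to a different extent in motor and in sensory cortex of the same animals. The comparison used 20 of the 20 arrays of the study, 2 from each of 10 mice, which the animal numbers in the labels join into pairs. For every gene the sensory log2 value was subtracted from the motor log2 value of the same mouse, and these differences were compared between 6 EAE mice and 4 healthy mice with cohort as a covariate. The result, named the area difference below, equals the EAE effect in motor cortex minus the EAE effect in sensory cortex on the log2 scale. A value below 0 therefore means that EAE minus healthy was lower in motor than in sensory cortex.

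The mice were female C57Bl6 animals of 2 cohorts, and each cohort held 3 EAE and 2 healthy animals. The EAE mice were injected at an age of 8 to 12 weeks with a peptide of myelin oligodendrocyte glycoprotein (MOG35-55), 100 µg in the rear flanks and 50 µg at the base of the tail, and received 400 ng of pertussis toxin on days 0 and 3. Their average grades were 2.5 to 3 in cohort 1 and 3 to 3.5 in cohort 2, so a contrast of cohorts among EAE mice is partly one of grade. The labels give both day 21 and days 18 to 21 for the time of collection. Healthy mice were cage mates for which the labels mention no injection, so the immunisation and the disease cannot be told apart. Both areas were dissected with an atlas from 1 mm slices after perfusion with saline and an RNA preservative, and 2 arrays, motor cortex of healthy mouse 4 and sensory cortex of healthy mouse 1, were processed on a second day.

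In EAE, T cells primed against myelin enter the central nervous system, and the interferon they release drives resident and recruited cells to express antigen-presenting molecules, chemokines and antiviral effectors. Class II molecules of the major histocompatibility complex (MHC) present peptides to CD4+ T cells and are made by microglia, macrophages and dendritic cells, and astrocytes respond with a reactive programme that includes the intermediate filament gene Gfap. Motor cortex has a thin layer 4 and large deep projection neurons, whereas sensory cortex has a thick layer 4 that receives thalamic input.

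The promoters of 4 genes at the centre of the results are shown because they carry the sequence elements through which interferon and class II expression are known to act. Each is the 250 bases before the RefSeq transcription start on GRCm38.p6, 5′ to 3′ on the strand of the gene. In the first pair, Cxcl10 at chr5:92348890-92349139 (minus strand) and Ifit1 at chr19:34640639-34640888 (plus strand), capitals mark the core of the interferon-stimulated response element, searched on either strand as GAAA, any 2 bases and GAAA. In the second pair, H2-Aa at chr17:34287824-34288073 (minus strand) and H2-Eb1 at chr17:34305617-34305866 (plus strand), capitals mark the CCAAT box on either strand, an element of class II promoters.
Cxcl10: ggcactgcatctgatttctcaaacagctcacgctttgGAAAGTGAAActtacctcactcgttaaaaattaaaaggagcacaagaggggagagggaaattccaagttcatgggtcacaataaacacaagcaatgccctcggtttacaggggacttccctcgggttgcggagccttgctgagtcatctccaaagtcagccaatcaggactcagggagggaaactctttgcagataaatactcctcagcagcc
Ifit1: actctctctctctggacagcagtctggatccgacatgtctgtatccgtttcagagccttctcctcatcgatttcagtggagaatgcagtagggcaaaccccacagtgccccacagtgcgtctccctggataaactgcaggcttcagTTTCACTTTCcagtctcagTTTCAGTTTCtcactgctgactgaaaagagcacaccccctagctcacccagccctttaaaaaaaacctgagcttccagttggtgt
H2-Aa: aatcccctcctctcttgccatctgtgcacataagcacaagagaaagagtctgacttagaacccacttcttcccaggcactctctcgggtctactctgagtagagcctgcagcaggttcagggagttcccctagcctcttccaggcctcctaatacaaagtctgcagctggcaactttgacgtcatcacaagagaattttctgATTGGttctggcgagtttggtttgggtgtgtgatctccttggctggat
H2-Eb1: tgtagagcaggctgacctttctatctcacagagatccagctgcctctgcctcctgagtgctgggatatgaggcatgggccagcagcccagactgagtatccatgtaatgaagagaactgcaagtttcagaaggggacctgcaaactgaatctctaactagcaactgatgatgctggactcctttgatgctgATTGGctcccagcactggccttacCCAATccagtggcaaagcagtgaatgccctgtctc

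The Cxcl10 match ended 203 bases before the start, and Ifit1 had 2 matches. The response element core was found in 978 of 32851 RefSeq promoter windows of the same length (2.98%), in 6 of the 15 interferon effector genes and in 6 of the 7 interferon-inducible GTPase genes that had a promoter entry. The CCAAT box is a much more frequent word, present in 33.8% of the windows, and all 6 class II genes with an entry held it. These matches describe letters and not occupied sites. H2-Ab1, Parp9 and Spink8 are named below without a promoter.

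The dissections were checked against layer markers. Rorb, a transcription factor gene of layer 4, was lower in motor than in sensory cortex of every mouse: the differences were -1.13, -1.26, -1.08 and -0.99 in the healthy mice, and ran from -1.46 over a median of -1.14 to -1.05 in the EAE mice. The mean difference of Rorb was -1.17 with a limma adjusted p of 2.27e-07, and Crym, a marker of deep layers, stood at 1.59 in the other direction (adjusted p 1.69e-05, limma). Over all mice, 2080 of 18194 genes (11.4%) differed between the areas. The area labels thus matched these 2 markers in both conditions. Over the lists, the median of motor minus sensory was -0.46 for 14 upper-layer and layer 4 genes and only 0.14 for 13 deep-layer genes. The area difference of Rorb itself was -0.09 ± 0.10 (SE). That of Crym was -0.39, the lowest of 13 measured deep-layer genes, which had a median of -0.0043. The Crym value was -0.76 in cohort 1 and -0.02 in cohort 2. Crym differences ran from 0.71 to 2.17 in EAE mice and from 1.29 to 2.20 in healthy mice. The part of the dissection in this value was not tested.

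No gene passed the test of the area difference. Limma with Benjamini-Hochberg adjustment called 0 of 18194 genes (0%), and the smallest adjusted p was 1. At an unadjusted p under 0.05 there were 422 genes (2.32%), 302 below 0 (1.66%) and 120 above 0 (0.66%). With no area difference at any gene, a share of about 0.05 would fall under this threshold by chance. The 422 genes are thus no excess, and a gene or list described at the unadjusted level below is not a call. Without EAE mouse 1 the counts were 479 below and 207 above 0, without EAE mouse 3 they were 460 and 194, and without healthy mouse 2 the count below 0 was 189; without EAE mouse 5 there were 189 above 0. A test of every probe set on the arrays also called 0.

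The same mice gave many calls for the EAE effect averaged over both areas, a quantity that does not use the difference between them. There, 1431 genes were called (7.87%), of which 405 rose (2.23%) and 1026 fell (5.64%). The number called was 779 without EAE mouse 5 and 766, 691, 563 and 472 without healthy mice 1, 2, 3 and 4. Among the 405 risers the median EAE effect was 0.26 in motor and 0.31 in sensory cortex (log2), and 288 of them (71.1%) had an area difference below 0, compared with 53.1% of all genes. At an unadjusted p under 0.05, 43 risers lay below 0 and 4 above, where 1.66% and 0.66% of all genes did. Of these counts, that below 0 was 19 without healthy mouse 2, and that above 0 was 10 without EAE mouse 3, 2 without healthy mouse 3 or 4 and 1 without EAE mouse 2. The 1026 fallers had a median area difference of 0.02, with 13 below and 6 above 0 at that level. These counts are near the shares of all genes, and their balance turned with single mice. Without EAE mouse 1 there were 13 below and 35 above 0, and without healthy mouse 1 there were 8 and 18. The split was 27 and 4 without EAE mouse 3, 24 and 4 without EAE mouse 4, 21 and 5 without healthy mouse 4 and 8 and 2 without healthy mouse 3. Cohort 1 alone gave 22 below and 0 above, and cohort 2 alone 12 and 41. The fallers thus had no stable direction for the area difference. In bulk tissue, fewer cells of a type and less RNA per cell cannot be told apart.

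**Figure D1:**
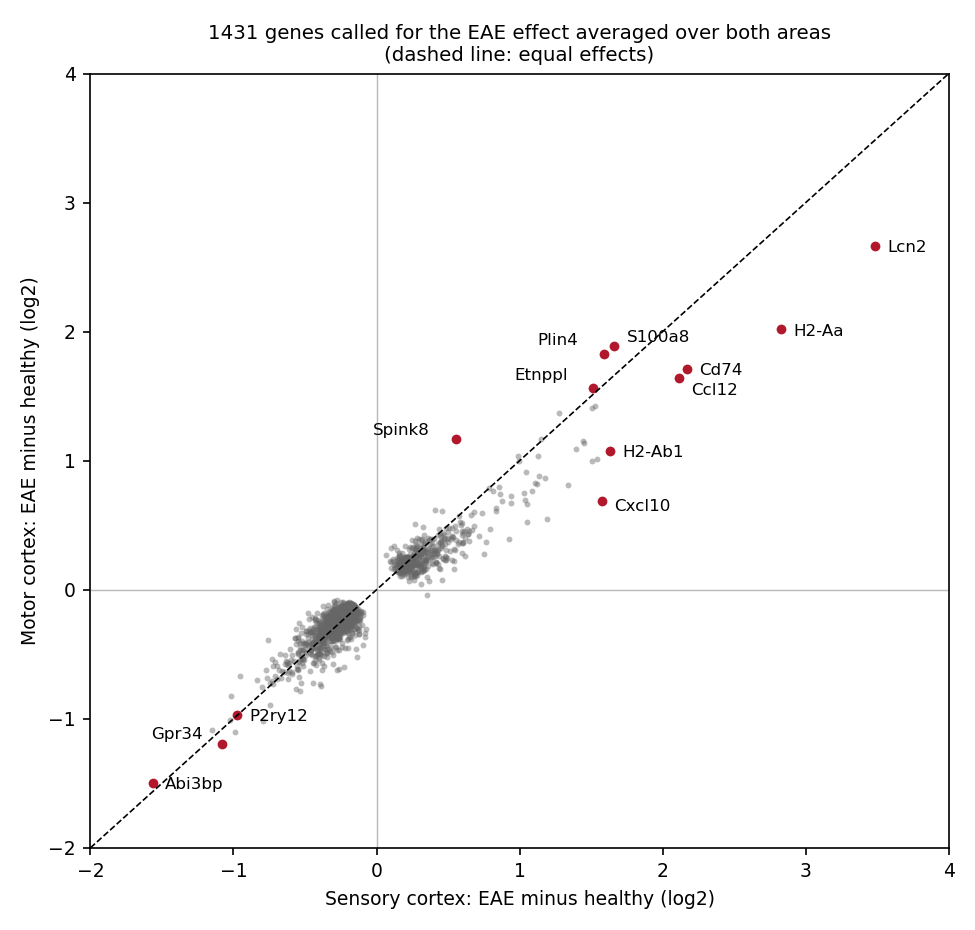
EAE minus healthy (log2) in sensory cortex on the horizontal axis and in motor cortex on the vertical axis for the 1431 genes called for the averaged EAE effect; each point is 1 gene, the dashed line marks equal effects and the named genes are in red. Cxcl10, H2-Ab1, H2-Aa and Lcn2 lie below the line, Etnppl, P2ry12 and Abi3bp lie close to it, and Spink8 lies above it.

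A failed test does not show equal effects, so the intervals of the area difference were examined. The median 95% interval reached 0.20 on either side of its estimate. For 18177 genes (99.9%) the interval lay within 1 log2 unit of 0, and for 17305 (95.1%) within 0.5. For the 23 genes that rose at least 2-fold over both areas the limits were wider: 18 (78.3%) had intervals within 1 unit and 8 (34.8%) within 0.5. A difference of 2-fold between the areas, 1 log2 unit, was thus outside the interval of nearly every gene as measured by its brightest probe set. The intervals of most strong risers reached past 0.5 log2 units. The counts include genes of low signal, where array processing compresses small differences. They also leave out other probe sets: Ttr stood at -0.36, whereas its 3 other probe sets lay between -1.34 and -1.01.

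The interferon-inducible genes stood lower in motor than in sensory cortex of EAE mice as a group. Of 20 measured interferon effectors, 20 had an area difference below 0 (53.1% of all genes), with a median of -0.27 against -0.01 for all genes. At an unadjusted p under 0.05, 9 lay below 0 and 0 above, where 1.66% and 0.66% of all genes did. Members of a list share their arrays and are no replicates of each other. The median EAE effect of the effectors was 0.62 in motor and 1.00 in sensory cortex. In the averaged test 7 of them rose, beside 2.23% of all genes. The 9 interferon-inducible GTPases, which attack the vacuoles of intracellular pathogens, had a median area difference of -0.28. At the unadjusted level 2 lay below 0 (Gbp3 and Ifi47) and 0 above, and 0 rose in the averaged test. The mean motor minus sensory value of the GTPases was below every healthy mouse in 2 EAE mice only, mouse 1 (-1.25) and mouse 2 (-0.83). Without healthy mouse 2 the medians were -0.15 for the effectors and -0.17 for the GTPases, and without EAE mouse 1 that of the GTPases was -0.15.

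Cxcl10, which encodes a chemokine that attracts activated T cells through CXCR3, was the effector with the smallest p. In healthy mice its motor minus sensory differences were -0.05, 0.15, 0.04 and 0.37, and in EAE mice they ran from -1.60 over a median of -0.55 to -0.28. Every EAE mouse thus lay below every healthy mouse, an order seen in 73 of all genes (0.401%). With 6 against 4 mice, chance alone also gives such an order for some genes, so it is no test. In motor cortex Cxcl10 was 8.28 ± 0.58 (SD, 6 EAE mice) against 7.58 ± 0.12 (4 healthy mice), and in sensory cortex 9.03 ± 0.88 against 7.46 ± 0.17. The EAE effect was 0.69 in motor and 1.58 in sensory cortex, an area difference of -0.89 ± 0.19 (SE; unadjusted p 0.000578, limma). It was -1.14 in cohort 1 and -0.63 in cohort 2. Cxcl9, a second CXCR3 ligand that is named here because it had the lowest estimate of all genes, stood at -1.12 ± 0.42.

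Parp9 and Irf9 were less scattered. Irf9 encodes the DNA-binding subunit of the complex that carries type I interferon signals to response elements, and Parp9 an ADP-ribosyltransferase family member induced by interferon. Parp9 differences were -0.06, 0.00, 0.14 and 0.10 in healthy mice and ran from -0.45 over -0.31 to 0.01 in EAE mice. Those of Irf9 were -0.06, -0.16, 0.01 and 0.19 in healthy mice and ran from -0.52 over -0.31 to -0.08 in EAE mice. The groups overlapped for both genes: EAE mouse 6 reached the healthy range for Parp9, and EAE mice 4 and 6 did so for Irf9. Area differences were -0.32 ± 0.07 for Parp9 and -0.30 ± 0.07 for Irf9, from EAE effects of 0.27 and 0.26 in motor and 0.59 and 0.56 in sensory cortex.

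Ifit1, which binds foreign RNA, rose in the averaged test (0.86, adjusted p 0.0431, limma) with effects of 0.67 in motor and 1.05 in sensory cortex. Upstream of the effectors, the 16 measured genes of interferon receptors, kinases and transcription factors had a median area difference of -0.05. Besides Irf9, Irf7 (-0.29 ± 0.13) and Socs1 (-0.25 ± 0.10), an inhibitor of the pathway, lay below 0 at the unadjusted level.

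**Figure D2:**
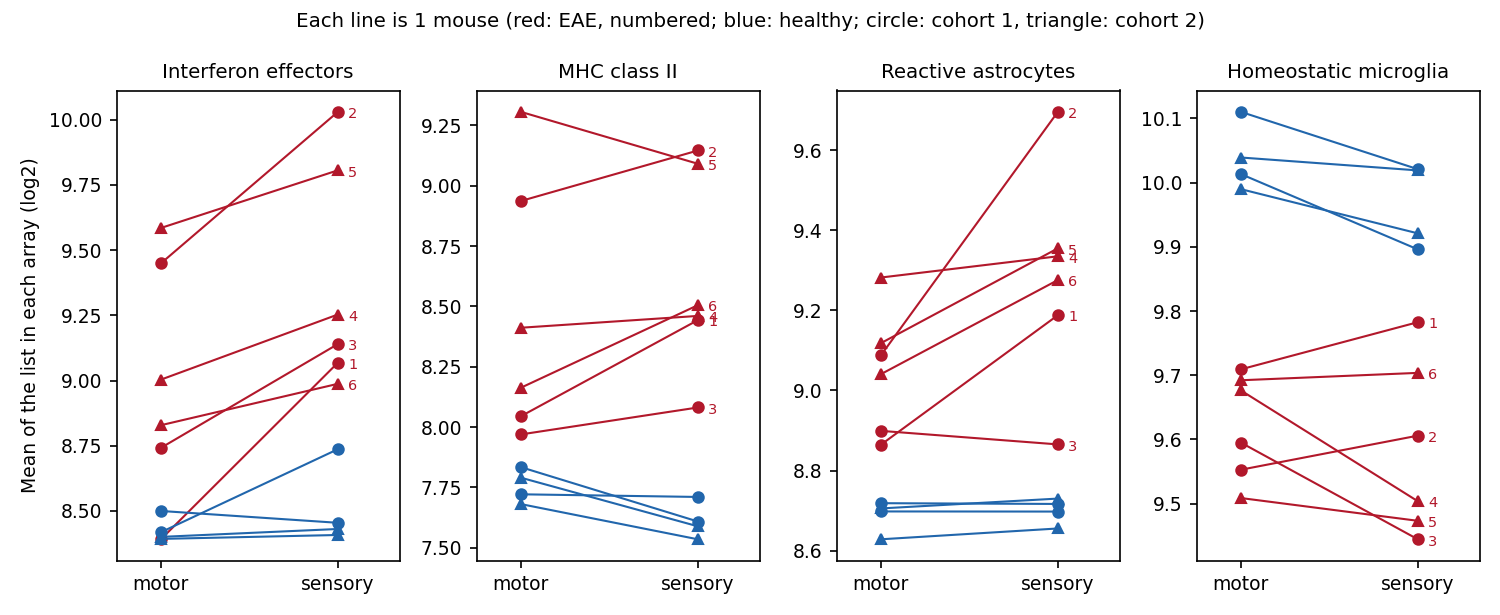
Mean log2 value of the measured members of 4 gene lists in motor and sensory cortex; each line joins the 2 arrays of 1 mouse, red for EAE (numbered) and blue for healthy, with circles for cohort 1 and triangles for cohort 2. The interferon lines of all 6 EAE mice run upward from motor to sensory cortex, by 0.16 to 0.68 log2 units, while the microglial lines of EAE mice run in both directions.

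Seen mouse by mouse, the mean motor minus sensory value of the interferon effectors was -0.68, -0.58 and -0.40 in EAE mice 1 to 3, the animals of cohort 1, and -0.25, -0.22 and -0.16 in EAE mice 4 to 6 of cohort 2. The healthy mice stood at -0.32, 0.05, -0.03 and -0.02. Healthy mouse 1, whose sensory array was processed on the second day, thus overlapped the EAE range, and 3 EAE mice lay below it. The median area difference of the list was -0.37 in cohort 1 and -0.12 in cohort 2, and that of the GTPases -0.66 and -0.02. A test of the difference between cohorts called 0 of 18194 genes (limma; 519 at an unadjusted p under 0.05).

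Among the MHC class II genes, H2-Ab1, a beta chain of the class II molecule I-A, had the smallest p of all genes. Its differences were -0.24, 0.17, 0.24 and 0.47 in healthy mice and ran from -0.72 over -0.32 to -0.16 in EAE mice. Healthy mouse 1 lay within the EAE range, and the other 3 healthy mice lay above it. H2-Ab1 stood at 8.97 ± 0.81 against 7.89 ± 0.02 in motor cortex (SD, EAE against healthy) and at 9.37 ± 0.82 against 7.73 ± 0.29 in sensory cortex. The EAE effect was 1.08 in motor and 1.63 in sensory cortex, and the area difference -0.56 ± 0.11 (unadjusted p 0.000319, adjusted p 1, limma). Of its 2 other probe sets, both had the same sign and 1 passed the unadjusted level.

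H2-Aa, the alpha chain of I-A, H2-Eb1, the beta chain of I-E, and Cd74, the invariant chain that escorts class II molecules, had area differences with larger errors. H2-Aa differences were -0.22, 0.73, 0.65 and 0.01 in healthy mice and ran from -1.64 over -0.26 to 0.39 in EAE mice. Mice 1 and 6 of the EAE group had much lower motor than sensory values, whereas EAE mouse 5 had a higher motor value for all 3 genes. The area differences were -0.81 ± 0.35 for H2-Aa, -0.51 ± 0.17 for H2-Eb1 and -0.46 ± 0.19 for Cd74, beside averaged rises of 2.42, 1.25 and 1.94. The 3 other H2-Aa probe sets stood nearer 0, between -0.30 and -0.08, and 0 of them passed the unadjusted level. At the unadjusted level, 4 of 9 measured class II genes lay below 0 and 0 above, beside 1.66% and 0.66% of all genes. The median of the list was -0.18 (-0.09 without healthy mouse 1).

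For MHC class I, H2-D1 and B2m had area differences near 0. H2-D1, a classical class I heavy chain, rose over both areas by 0.79 (adjusted p 0.00965, limma), with an effect of 0.79 in each area, an area difference of 0.00 ± 0.10 and a 95% interval from -0.21 to 0.22. B2m, the light chain, stood at 0.02 ± 0.07. The immunoproteasome subunits Psmb8 (-0.35 ± 0.17) and Psmb9 (-0.34 ± 0.16) and the class I transactivator Nlrc5 (-0.30 ± 0.19) lay lower, and 0 of 14 measured members passed the unadjusted level in either direction. The averaged test called 5 of the 14 as risers, beside 2.23% of all genes.

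**Figure D3:**
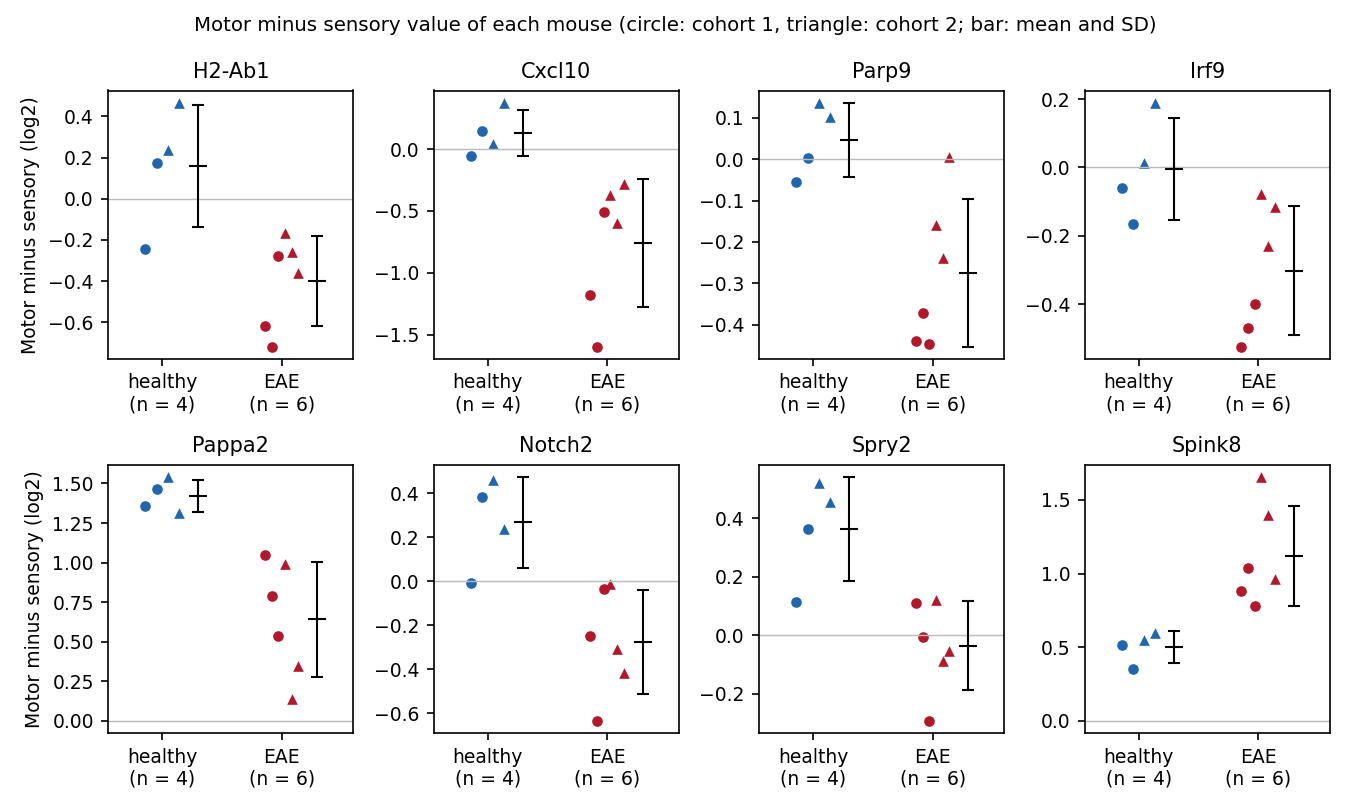
Motor minus sensory log2 value of each mouse for 8 genes with small unadjusted p, healthy in blue and EAE in red, circles for cohort 1 and triangles for cohort 2; the bar gives the mean and SD of the group. The groups do not overlap for Cxcl10, Pappa2, Notch2 and Spink8 and overlap for H2-Ab1, Parp9, Irf9 and Spry2.

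Among genes of activated microglia and macrophages, 6 of 19 measured members lay below 0 at the unadjusted level and 0 above. The shares of all genes were 1.66% and 0.66%. This list had a median of -0.16 (-0.24 without healthy mouse 4). Cd52, a surface glycoprotein of leukocytes, separated the groups: its differences were 0.36, 0.25, 0.18 and 0.14 in healthy mice and ran from -0.77 over -0.20 to 0.04 in EAE mice. Cd52 rose over both areas by 1.07 (adjusted p 0.0338, limma), with effects of 0.81 in motor and 1.34 in sensory cortex, and its area difference was -0.53 ± 0.15. It was -0.77 in cohort 1 and -0.28 in cohort 2. The Fc receptor genes Fcgr1 (-0.45 ± 0.14, with its other probe set at -0.14) and Fcgr4 (-0.30 ± 0.09) lay on the same side.

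Complement and chemokine genes held fewer members at the unadjusted level. Among all genes, 53.1% had an estimate below 0 and 1.66% were below 0 at that level. Of 12 measured complement genes, 9 had estimates below 0 and 2 were below at that level, C1qb (-0.24 ± 0.11) and Serping1 (-0.48 ± 0.18), with a list median of -0.13. Of 21 measured chemokine and receptor genes, 15 had estimates below 0 and 3 were below at that level, Cxcl10, Ccl2 (-0.36 ± 0.10) and Ccl5 (-0.52 ± 0.17). The chemokine median of -0.08 was not stable: it was 0.03 in cohort 1 and -0.09 in cohort 2, 0.00 without EAE mouse 3 and -0.13 without EAE mouse 1 or healthy mouse 1, and it came nearer 0, at -0.05, without EAE mouse 6 or healthy mouse 3.

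Homeostatic microglial genes had a median area difference of -0.07, similar in size to that of the chemokine list, and single values between -0.12 and 0.15. Of 13 measured, 7 fell and 1 rose in the averaged test, 8 had area differences below 0 and 0 passed the unadjusted level. Among all genes, 5.64% fell and 2.23% rose in that test, and 53.1% had an area difference below 0. The median was -0.02 without EAE mouse 6, -0.04 without healthy mouse 2 and -0.10 without EAE mouse 4. P2ry12, a purinergic receptor that guides microglial processes, had differences of 0.27, 0.16, -0.04 and -0.06 in healthy mice and ran from -0.19 over 0.03 to 0.39 in EAE mice, so the groups overlapped. P2ry12 fell over both areas (adjusted p 0.00247, limma), with effects of -0.97 in motor and -0.98 in sensory cortex, and the area difference of 0.01 ± 0.12 had an interval from -0.25 to 0.26. Gpr34 (-0.11 ± 0.17) and Fcrls (0.02 ± 0.09) also fell at least 2-fold over both areas, and their intervals spanned 0.

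Genes of cells at the borders of the brain had estimates on the same side as the immune genes. For comparison, 53.1% of all genes had an estimate below 0 and 1.66% were below 0 at the unadjusted level. All 8 measured perivascular macrophage genes had estimates below 0, with 2 below at the unadjusted level: Mrc1, the mannose receptor, at -0.38 ± 0.12 and Ms4a7 at -0.33 ± 0.09. For both, every EAE mouse lay below every healthy mouse, but the other Ms4a7 probe set stood at 0.02. Of 12 measured genes of meninges and fibroblasts, 10 had estimates below 0 and 3 were below at the unadjusted level: Igf2 (-0.44 ± 0.16), Igfbp2 (-0.36 ± 0.12) and the collagen gene Col3a1 (-0.34 ± 0.11). The other probe set of Igf2 stood at -0.02 and that of Col3a1 at -0.04. The list median of -0.15 was -0.04 without EAE mouse 2 and -0.23 without EAE mouse 1. The mean motor level of the meningeal list ranged from 8.96 to 9.46 in EAE and from 9.29 to 9.49 in healthy mice, and the sensory level from 9.26 to 9.75 and from 9.32 to 9.59. EAE mouse 2, with the lowest motor minus sensory mean of this list (-0.58), also had the lowest values of Cxcl10 and H2-Ab1. EAE mice 1 and 3, at 0.01 and 0.05, had low interferon values with no such shift. The part of meningeal tissue in the immune differences was not tested.

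Reactive astrocyte genes had a median area difference of -0.19 over 15 measured members. At the unadjusted level 4 lay below 0 and 0 above, beside 1.66% and 0.66% of all genes. Cxcl10 and Lcn2 are counted in other lists too. Without EAE mouse 2 the median was -0.10. Lcn2, a secreted iron-trafficking protein of reactive astrocytes and neutrophils, showed the largest averaged rise of all genes, 3.07. Its differences were -0.09, -0.02, 0.27 and 0.40 in healthy mice and ran from -1.87 over -0.72 to 0.60 in EAE mice, with only EAE mouse 3 above the healthy range. The EAE effect was 2.67 in motor and 3.48 in sensory cortex, and the area difference was -0.81 ± 0.35, with an interval from -1.57 to -0.06. Gfap stood at -0.32 ± 0.13, with effects of 0.65 and 0.97, and 1 of its 2 other probe sets passed the unadjusted level in the same direction. Its value was -0.53 in cohort 1 and -0.10 in cohort 2.

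Aqp4, the water channel of astrocyte endfeet, separated the groups in another way. Its differences were -0.02, -0.05, 0.15 and 0.06 in healthy mice and ran from -0.36 over -0.27 to -0.06 in EAE mice. The level was 10.97 ± 0.19 in motor cortex of EAE mice against 11.37 ± 0.10 in healthy mice, and 11.22 ± 0.21 against 11.33 ± 0.15 in sensory cortex, an area difference of -0.28 ± 0.07. The 2 other Aqp4 probe sets stood between -0.05 and 0.07, so this value belongs to 1 probe set. The list of 16 astrocyte identity genes had a median of -0.04.

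Outside the immune genes, Pappa2, a protease that frees insulin-like growth factors from their binding proteins, had the smallest p below 0 after H2-Ab1. Healthy mice had differences of 1.36, 1.46, 1.54 and 1.31, whereas EAE mice ran from 0.14 over 0.66 to 1.05, all below the healthy mice. The motor level was 7.32 ± 0.39 in EAE and 8.06 ± 0.18 in healthy mice, and the sensory level 6.68 ± 0.15 and 6.64 ± 0.16. The area difference was -0.78 ± 0.16 (unadjusted p 0.000432, limma), -0.62 in cohort 1 and -0.94 in cohort 2.

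Notch2, a receptor of the Notch pathway, and Spry2, an inhibitor of growth factor signalling, had higher mean sensory values in EAE mice. Their motor means differed by less than the SD of either group. Motor levels of Notch2 were 10.10 ± 0.20 in EAE and 10.29 ± 0.32 in healthy mice (SD), and those of Spry2 were 11.90 ± 0.22 and 11.94 ± 0.12. Notch2 differences were -0.01, 0.38, 0.46 and 0.24 in healthy mice and ran from -0.64 over -0.28 to -0.01 in EAE mice, so the groups met without overlapping at healthy mouse 1 and EAE mouse 4. The EAE effect on Notch2 was -0.19 in motor and 0.35 in sensory cortex, an area difference of -0.54 ± 0.13, and that on Spry2 was -0.05 and 0.35, a difference of -0.40 ± 0.10. The single other probe set of each stood nearer 0, at -0.10 for Notch2 and -0.08 for Spry2.

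Fewer genes lay above 0. Spink8, a serine protease inhibitor gene of hippocampal pyramidal neurons, had differences of 0.51, 0.35, 0.55 and 0.59 in healthy mice and from 0.78 over 1.00 to 1.66 in EAE mice. Every EAE mouse lay above every healthy mouse, as for 26 of all genes (0.143%). Spink8 rose over both areas by 0.86 (adjusted p 0.00343, limma), with effects of 1.17 in motor and 0.55 in sensory cortex, and the area difference was 0.62 ± 0.13. It belongs to a list of 10 hippocampal genes with a median of -0.02, of which Prox1 was the other member above 0 at the unadjusted level (0.28 ± 0.13), with its 2 other probe sets at -0.05 and -0.03. The mean motor minus sensory value of that list was 0.03 to 0.35 in EAE mice, highest in EAE mouse 4, and -0.02 to 0.17 in healthy mice. The part of hippocampal tissue was not tested.

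Has3, a hyaluronan synthase gene, had differences of -0.25, -0.18, -0.21 and -0.47 in healthy mice and from -0.13 over 0.08 to 0.49 in EAE mice, an area difference of 0.39 ± 0.09. Among the 10 smallest p in either direction were further Rreb1 (-0.36 ± 0.09), a zinc finger transcription factor gene, S100a4 (-0.40 ± 0.10), a calcium-binding protein gene, and Ly6g6e (-0.36 ± 0.09) below 0. Above 0 were Gm30752 (0.32 ± 0.08), C730027H18Rik (0.29 ± 0.08), Ksr2 (0.23 ± 0.07), Cyp3a25 (0.29 ± 0.09), Mthfd2 (0.26 ± 0.08), 4931429P17Rik (0.30 ± 0.09), Paupar (0.25 ± 0.08) and Krtap5-2 (0.30 ± 0.09). Of these genes above 0, Spink8 included, Spink8 alone was called in the averaged test. Several had low signal beside the array medians of 8.22 to 8.32. Group means were 4.73 to 4.94 for Cyp3a25, 4.68 to 4.92 for Paupar, 5.53 to 5.77 for C730027H18Rik and 5.75 to 5.99 for 4931429P17Rik. Of the 4 other Rreb1 probe sets, 2 had the same sign and 1 of them passed the unadjusted level, and the highest stood at 0.11.

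**Figure D4:**
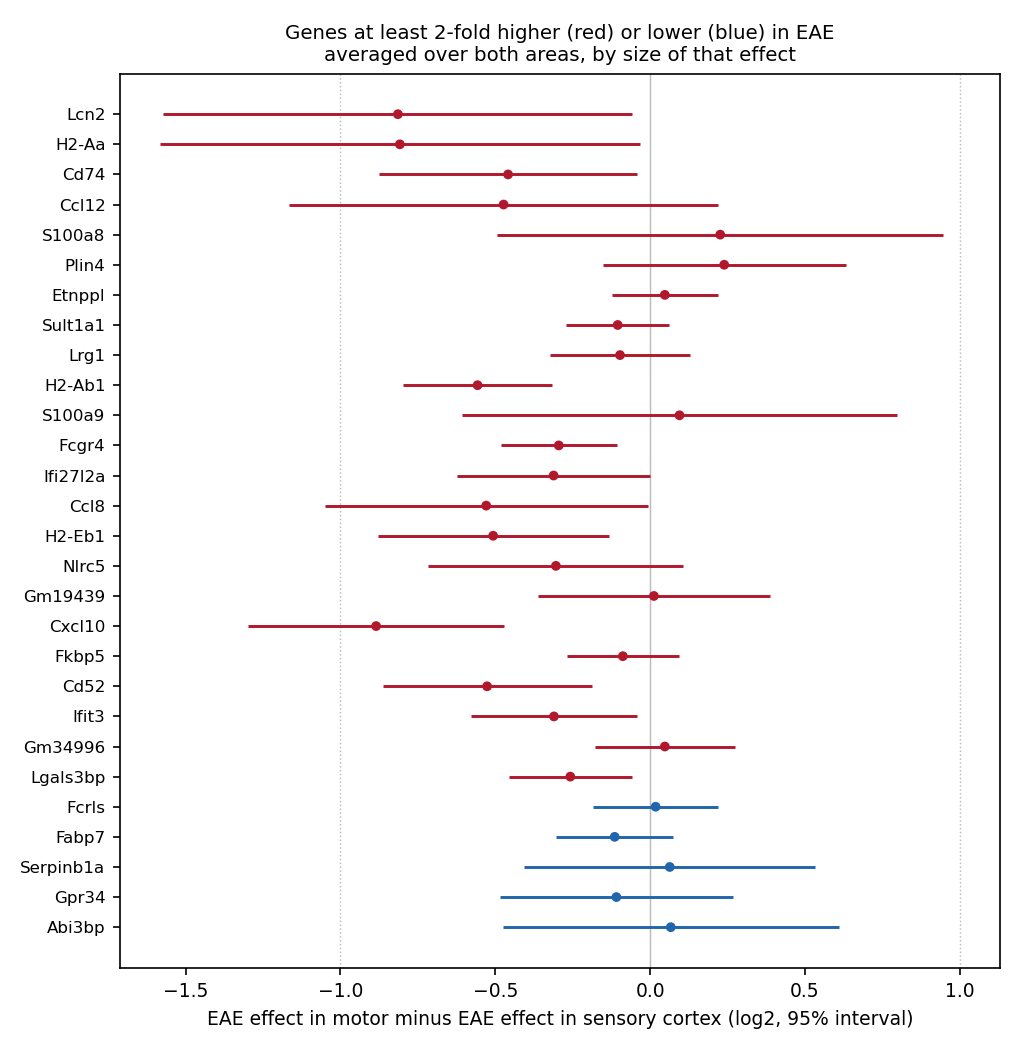
Area difference (log2, point) with its 95% interval (line) for the 23 genes that rose (red) and the 5 that fell (blue) at least 2-fold over both areas, ordered by the averaged effect; dotted lines mark 1 log2 unit on either side of 0. Intervals of the class II genes, Cxcl10, Cd52 and Lcn2 lie below 0, whereas those of Etnppl, Sult1a1, Lrg1 and Fkbp5 span 0 and are narrow.

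The 23 genes that rose at least 2-fold over both areas had a median area difference of -0.30. At an unadjusted p under 0.05, 11 of them lay below 0 and 0 above, where 1.66% and 0.66% of all genes did. The 11 were Lcn2, H2-Aa, Cd74, H2-Ab1, Fcgr4, Ccl8, H2-Eb1, Cxcl10, Cd52, Ifit3 and Lgals3bp. Their averaged rises were 1.01 to 3.07. Of these genes, 9 belong to the lists described above, whereas Fcgr4 and Ccl8 belong to no list. The count was 4 without healthy mouse 2, 7 without EAE mouse 1 and 0 when the 20 arrays were fitted without the mouse as a block. Leaving out genes with a mean below the median of all genes left 4, since 7 of the 11 were removed as dim: H2-Ab1, H2-Aa, H2-Eb1, Cxcl10, Lcn2, Fcgr4 and Ccl8.

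The other 12 strong risers had intervals that spanned 0, and they included the immune genes Ccl12 (-0.47 ± 0.32), Ifi27l2a (-0.31 ± 0.14) and Nlrc5. Plin4, which coats lipid droplets, rose over both areas by 1.71 (adjusted p 0.000109, limma), with effects of 1.83 in motor and 1.59 in sensory cortex and an area difference of 0.24 ± 0.18. Etnppl, an astrocyte enzyme of phospholipid metabolism, had differences of -0.06, -0.08, -0.09 and -0.13 in healthy mice and from -0.27 over -0.04 to 0.11 in EAE mice, so that the groups overlapped. Its effects were 1.56 and 1.51, the area difference 0.05 ± 0.08 and the interval -0.12 to 0.22. Sult1a1, a sulfotransferase gene, stood at -0.10 ± 0.08, Lrg1, an endothelial glycoprotein gene, at -0.10 ± 0.10, and Fkbp5, a glucocorticoid-induced chaperone gene, at -0.09 ± 0.08. The neutrophil alarmin genes S100a8 (0.23 ± 0.33) and S100a9 (0.09 ± 0.32) had wide intervals, from -0.49 to 0.95 and from -0.61 to 0.80, which allow a difference of either sign.

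Neuronal, myelin and metabolic genes gave list medians close to that of all genes. The medians were 0.01 for 9 excitatory and 0.00 for 14 inhibitory neuron genes, -0.05 for 13 genes of mature oligodendrocytes and 0.00 for 14 genes of oxidative phosphorylation, with 0 members of these lists at the unadjusted level. The oligodendrocyte median was not stable: it was -0.15 in cohort 1 and 0.06 in cohort 2, 0.04 without EAE mouse 1 and 0.07 without healthy mouse 2. Slc17a7, the vesicular glutamate transporter gene of cortical excitatory neurons, stood at 0.15 ± 0.11, Gad1, which makes GABA, at -0.05 ± 0.10 and Pvalb at 0.02 ± 0.10. Ugt8a, an enzyme of myelin lipid synthesis, fell over both areas by 0.66 with an area difference of -0.07 ± 0.13. Immediate early genes, which report recent neuronal activity, had a median of 0.08 over 16 members, with Fos at 0.05 ± 0.12 and Arc at 0.20 ± 0.11. Estimates of 3 members were below 0, and 1 of these, Fosl2 at -0.24, passed the unadjusted level. The other Fosl2 probe set stood at 0.02.

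**Figure D5:**
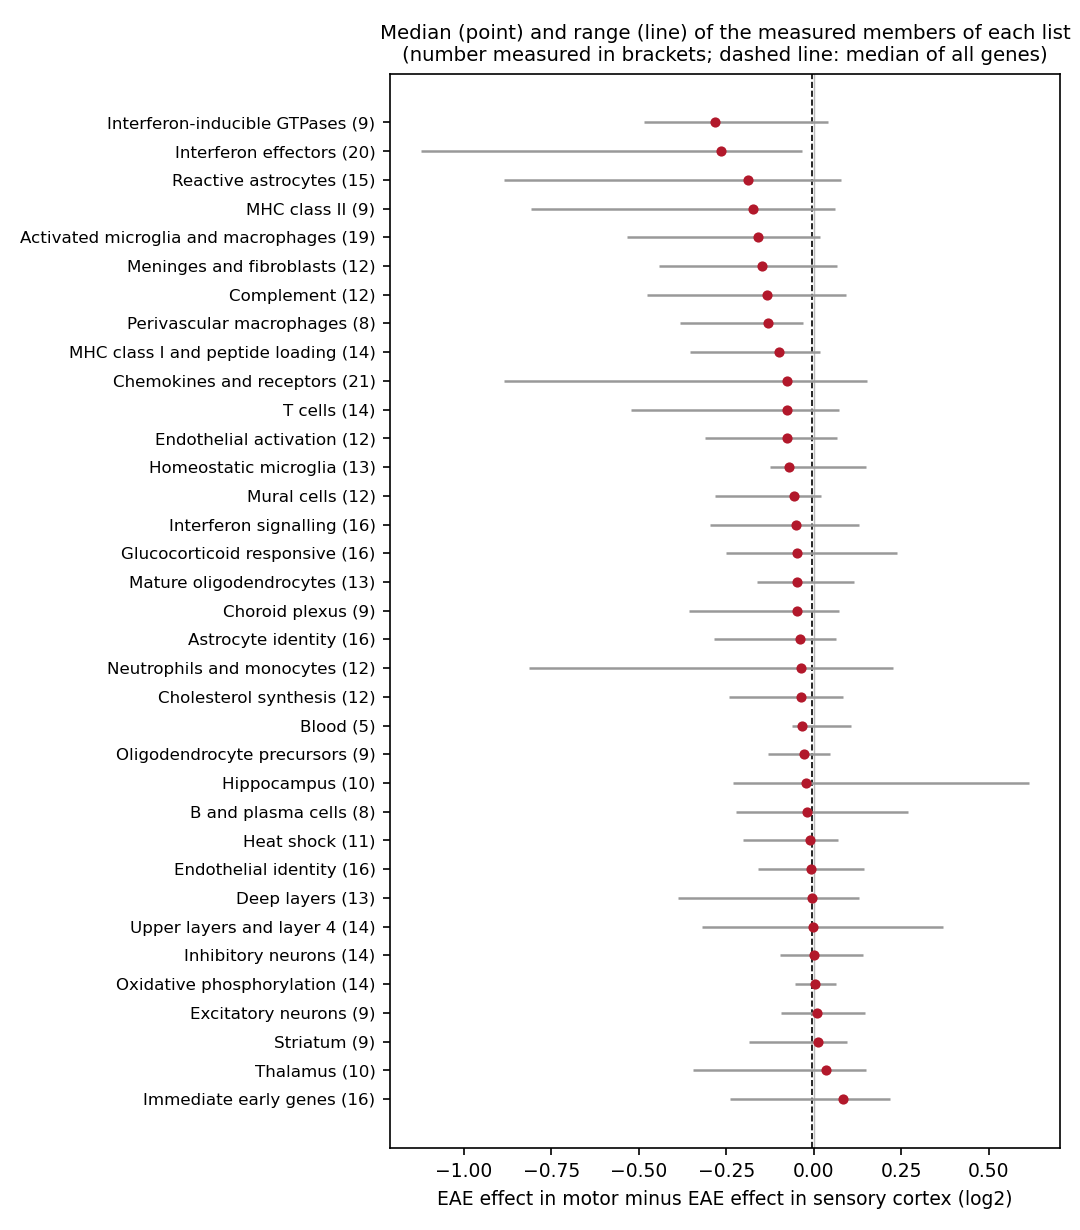
Median (point) and range (line) of the area difference (log2) over the measured members of each of 35 gene lists, with the number measured in brackets; the dashed line is the median of all genes. The GTPase and interferon effector lists have the lowest medians, at -0.28 and -0.27, and the immediate early genes the highest, at 0.08.

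The differences varied more between EAE mice than between healthy mice. Per gene, the median SD of motor minus sensory was 0.15 among the 6 EAE mice and 0.11 among the 4 healthy mice, and it was larger in EAE for 13635 of 18194 genes. Across genes, the motor minus sensory values of EAE mice 3 and 1 spread most, with SDs of 0.297 and 0.239, compared with 0.17 to 0.214 in the other 8 mice. For MHC class II, the list mean was -0.40, -0.21, -0.11, -0.05, 0.22 and -0.34 in EAE mice 1 to 6 and 0.01 to 0.23 in healthy mice. EAE mouse 5, with a mean motor level of 9.31 for this list, the highest of the 10 mice, was the one EAE mouse with a clear motor excess.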

How the data were processed

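RNA of motor and sensory cortex from 10 mice was measured on 20 Affymetrix arrays. Deposited values were log2 intensities between 3.79 and 15.1 with array medians of 8.22 to 8.32; the submitters' processing notes name RMA and Partek; their versions are not given in the sources used here. Background correction, quantile adjustment and probe summary, the usual steps of RMA, compress small differences at low signal. The number of arrays limits the precision.

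Gene names came from the annotation of the platform: 34958 probe sets had 1 symbol, and 932 with several and 9211 not listed were left unnamed. Each of 18194 genes was represented by its brightest probe set on average. Symbols were compared through Entrez identifiers with a RefSeq table of GRCm38.p6 (34754 matched, 0 changed).

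The motor minus sensory values per mouse were fitted with limma 3.58.1 in R 4.3.3 (lmFit, eBayes, two-sided), EAE against healthy and adjusted for cohort. A gene counted as called below an adjusted p (Benjamini-Hochberg) of 0.05. Every p of a gene, adjusted or unadjusted, is from limma. The EAE effect in each area, the average of both per mouse and motor minus sensory over all mice were fitted likewise. Pairing comes from the animal numbers in the labels: the deviations of the 2 arrays of a mouse from their group means correlated at 0.163 to 0.587, except in EAE mouse 3 at -0.0316. EAE and healthy mice are separate animals.

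The members and gene lists were chosen with earlier results of these data known, so lists are described by counts and medians with no list test. Of 506 entries in 36 lists, 462 were measured; 1 list, of genes already known to respond in both areas, is not described. Named were the 10 smallest p in each direction, up to 3 members of each list with the smallest p and the member with the largest averaged effect, the 10 largest averaged rises and falls, and a fixed set. Cxcl9, Fcgr4, Ccl8 and Ifit3 were named after their values were seen. In simulated data with 200 of 18194 genes changed, the fit of the area difference recovered 63% at a log2 change of 0.5 and 91% at 1, with 9 false calls. The changed genes were drawn from all genes, with equal error in EAE and healthy mice. These shares do not carry over to the 23 genes that rose at least 2-fold, whose median SE was 0.17 against 0.09 for all genes. Alternatives covered the mouse block, each mouse, each cohort, the second processing day, the covariate, array weights, normalization, dim genes, probe set choice and the eBayes settings. Leaving out healthy mice 1 and 4, the list medians by cohort, the alternatives for motor minus sensory over all mice and those for unadjusted counts were chosen after seeing the data.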

Additional observations from a re-analysis of the deposited data

Results flagged for a closer look

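The values below stood apart from the other mice of their group by the gap to the nearest mouse relative to the range of the group. In all, 198 groups of gene values and 72 groups of list means were examined, and chance marks about 1 in 20 such groups.

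Among healthy mice, motor minus sensory log2 values were isolated for healthy mouse 1 in Plin4 (-0.83) and Cux2 (-0.52). Healthy mouse 2 stood apart for Psmb9 (0.20), S100a9 (-0.35) and Ighm (0.52). Healthy mouse 3 stood apart for Gfap (-0.83), at the level of the EAE mice, and healthy mouse 4 for Hpgd (-0.11).

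Among EAE mice, mouse 1 was isolated for Ccl12 (-2.03), a chemokine that attracts monocytes, where the next lowest EAE mouse stood at -0.40, and for H2-D1 (-0.57). EAE mouse 4 was isolated for Aspg (0.16).

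Of the list means, healthy mouse 2 stood apart for MHC class I and peptide loading (0.0597) and for mature oligodendrocytes (0.24), healthy mouse 1 for T cells (-0.0485), and EAE mouse 4 for the hippocampal genes (0.35).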

How the results depend on the processing

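The count of 0 genes for the area difference was the same in 24 alternatives, among them the fit with no replicate block (0), which ignores the pairing of a mouse's arrays; the smallest adjusted p was 0.176, with array weights. At an unadjusted p under 0.05, the genes below and above 0 numbered 139 and 59 with no replicate block, 702 and 218 with array weights, and 189 to 479 and 80 to 207 when each mouse was left out. The 11 strong risers below 0 became 0 with no replicate block, 1 with mouse as a random block and 0 with that block and without the arrays of the second processing day. They became 4 with dim genes left out, which removes 7 of them, 4 in cohort 2 alone and 4 to 11 when each mouse was left out. Leaving out dim genes gave 204 and 38 genes below and above 0. Of the 405 risers, the 43 below 0 became 10 with no replicate block, 22 with mouse as a random block and 14 with that block and without the second-day arrays. They became 22 with dim genes left out, 23 in cohort 2 alone, 77 with array weights and 19 to 58 when each mouse was left out. Of the fallers, 13 below and 6 above 0 became 8 and 5 with no replicate block and 12 and 7 with mouse as a random block. With that block and without the second-day arrays they became 9 and 22. They were 17 and 14 after quantile normalization, 28 and 14 with array weights, and 8 to 27 and 2 to 35 when each mouse was left out. Counts for the averaged effect ran from 472 to 1813 against 1431 (779 without EAE mouse 5 and 766, 691, 563 and 472 without healthy mice 1 to 4). Of 2219 gene and setting pairs, 2197 kept their sign or crossed 0 while moving less than 1 SE from the main value. Another 21 crossed 0 with a larger move, from a main value whose interval held 0. The remaining 1 reversed: Ttr, at -0.36 in all mice, stood at 0.0891 in cohort 2 alone. The cause was not tested. List medians were lower in cohort 1 for 21 of 35 lists and lower in cohort 2 for 14: cohort 1 against cohort 2 gave -0.39 and -0.11 for MHC class II and -0.24 and -0.07 for reactive astrocytes, but -0.07 and -0.25 for meninges and fibroblasts, -0.15 and -0.22 for perivascular macrophages and 0.10 and -0.31 for neutrophils and monocytes. Arrays of 10 mice leave 0.20 log2 units as the typical limit.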

Other observations

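Vascular genes gave a mixed picture that the report does not describe. For comparison, 2.23% of all genes rose and 5.64% fell over both areas. Of 12 measured genes of endothelial activation, 6 rose over both areas, and 2 adhesion molecule genes lay below 0 for the area difference at an unadjusted p under 0.05 (limma): Icam1 at -0.27 ± 0.11 and Vcam1 at -0.31 ± 0.09 (SE, log2). Vcam1 had an EAE effect of -0.23 in motor and 0.08 in sensory cortex, and its motor minus sensory values did not overlap between EAE and healthy mice. Of 16 measured endothelial identity genes, 7 fell and 1 rose over both areas, with 0 at the unadjusted level of the area difference and Emcn, a sialomucin gene of venous and capillary endothelium, at -0.01 ± 0.13. Of 12 mural cell genes, Tagln, a smooth muscle gene, stood at -0.28 ± 0.08.

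Lists with near-zero medians held single members apart from the rest. Cdkn1a, a cell cycle inhibitor gene among 16 measured glucocorticoid-responsive genes, stood at -0.25 ± 0.08 with no overlap between EAE and healthy mice. Its other probe set stood at -0.02. Cux2, an upper-layer transcription factor gene, stood at -0.30 ± 0.09, and its 2 other probe sets stood nearer 0, at -0.17 and -0.08. No gene named here passed the adjusted test of the area difference.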
